A study of Mus musculus with 14 samples.

Results

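The levels of 10 transcription factors were followed in mouse liver sinusoidal endothelial cells (LSECs), the fenestrated and scavenging endothelium of the liver. The factors are Gata4, Maf, Tfec, Meis2, Erg, Fli1, Sox17, Sox18, Tal1 and Lmo2. They were chosen by name from regulators known for LSEC or general endothelial identity. Each name mapped to 1 row of the count table, so 10 of its 54524 genes are described, and all 10 passed the filter on low counts that 26626 genes passed.

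LSECs were sorted as living CD32+ F4/80- cells from male Balb/c mice. The methods add gates against CD45 and against UV autofluorescence, which the paper uses to exclude stellate cells. The labels give the age of the mice as 10 to 12 weeks and the methods as a somewhat older range. The 4 healthy samples came from mice that received nothing, and the other 10 came from mice given 1 intraperitoneal injection of CCl4, a hepatotoxin, in mineral oil at 0.5 µl per g of body weight. Livers were taken 1 day (2 samples), 3 days (4 samples) or 7 days (4 samples) after the injection, and some further day 1 samples were not sequenced for reasons of RNA quality. The healthy mice had no oil injection, so oil and CCl4 cannot be told apart. The comparisons ask how the transcriptome of LSECs moves during acute injury and the recovery from it.

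In the liver, Gata4 is known as the master regulator of the sinusoidal endothelium, where it holds back a continuous capillary programme, and Maf, Tfec and Meis2 are enriched in LSECs over other endothelium. Erg and Fli1, from the ETS family, and Sox17 and Sox18, from the SOXF group, are used by nearly all endothelial cells to hold vessel identity and junctions. Tal1, a basic helix-loop-helix factor, and Lmo2, a bridging protein that does not bind DNA itself, form complexes with GATA factors and LDB proteins in blood and endothelial progenitors.

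Libraries held 46401496 to 103912264 counts per sample and 22986 to 34768 genes with a count. Levels are given as CPM, each count divided by its library's total after TMM scaling. LSEC genes such as Stab2 and Fcgr2b, which encodes the sorted antigen CD32, were abundant in each sample (Fcgr2b 1379.5 to 3397 CPM), and the 18 pan-endothelial genes summed to 12881 to 15012 CPM in healthy samples and 6937 to 11236 CPM at day 3. In CPM, Fcgr2b was lower in every day 1 and day 3 sample than in any healthy sample. It had 213480 to 340417 counts in healthy samples, 132478 and 163374 at day 1 and 81826 to 162934 at day 3. The paper also reports a passing loss of CD32b staining on these days. Whether the CD32 gate then took another subset of LSECs was not tested. Markers of other cells were present too, and their part in the results on the members was not tested. The 10 monocyte and neutrophil markers summed to 533 to 1430.3 CPM in healthy samples, to 8509 and 4446 CPM at day 1, to 13264, 8072, 1502 and 1387 CPM in the 4 day 3 replicates, and to 4214 to 9690.4 CPM at day 7. The 10 stellate cell markers went from 138 to 257 CPM in healthy samples to 735 to 2466 CPM at day 3 and 409.6 to 7046 CPM at day 7, and hepatocyte markers were at 12133 CPM in healthy replicate 4 against 371 to 626 CPM in the other healthy samples. Of the monocyte and neutrophil list, 4 of 10 genes rose at day 1, 4 at day 3 and 1 at day 7, and of the stellate list none, 8 and 9 of 10 rose, with Retnlg the only gene of these lists at 0 in some sample. In bulk samples of this kind, fewer endothelial cells and less RNA per cell cannot be told apart.

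In GRCm38 the 10 members are protein-coding genes spread over 8 chromosomes. The LSEC-enriched factors lie at chr14:63198922-63271692, minus strand (Gata4), chr8:115682942-115707794, minus strand (Maf), chr6:16833373-16898441, minus strand (Tfec) and chr2:115863064-116065839, minus strand (Meis2). The ETS and SOXF factors lie at chr16:95359169-95586593, minus strand (Erg), chr9:32422204-32542861, minus strand (Fli1), chr1:4490931-4497354, minus strand (Sox17) and chr2:181669836-181671640, minus strand (Sox18). Tal1 lies at chr4:115056426-115071755, plus strand, and Lmo2 at chr2:103957986-103981878, plus strand. Several members belong to families whose coding sequences resemble each other, so the longest run of identical bases between relatives was measured, since reads inside such a run could be given to either gene. The longest run between 2 members joined Sox17 and Sox18 and held 29 bases, and the run between Erg and Fli1 held 22 bases. Both lie in the part coding for the DNA-binding domain, the HMG box and the ETS domain. They are shown in capitals with 15 bases on either side, all coding, in the direction of transcription (GRCm38):
Sox17, chr1:4492596-4492654, minus strand, exon 5: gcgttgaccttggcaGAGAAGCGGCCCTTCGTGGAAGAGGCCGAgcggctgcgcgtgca
Sox18, chr2:181670924-181670982, minus strand, exon 2: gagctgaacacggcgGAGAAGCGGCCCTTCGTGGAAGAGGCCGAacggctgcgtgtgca
Erg, chr16:95361149-95361200, minus strand, exon 10: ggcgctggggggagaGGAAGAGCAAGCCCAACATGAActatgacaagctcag
Fli1, chr9:32424128-32424179, minus strand, exon 9: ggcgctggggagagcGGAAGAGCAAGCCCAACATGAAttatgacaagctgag
Against other relatives the longest coding run was 32 bases, between Meis2 and Meis1. Antisense genes were the other source of doubt, because the sources used here do not state whether counting used the strand. Gm37587 covered 804 of the 4772 exon bases of Sox17 and had 19 to 641 counts per sample, against 2532 to 7548 for Sox17, while Gm15655 covered 440 of the 8241 exon bases of Maf and had 0 counts in every sample.

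The promoter table from RefSeq (GRCm38.p6) held an entry for 4 of the 10 members, namely Tfec, Meis2, Erg and Tal1. Since Gata4 and the ETS factors are themselves in the group, the 250 bases before each start were searched on both strands for a GATA word (AGATAA or TGATAA) and an ETS word (CGGAAG or AGGAAG). These 4 genes had 7 starts in the table, of which 3 held a GATA word, namely 1 each of Tfec, Tal1 and Erg, and 2 of those lie at the annotated gene start. The Erg start with a GATA word, 127245 bases inside the gene, also held 1 ETS word, and the other starts of Meis2, Erg and Tal1 held neither. The promoters of Tfec and Tal1 at the annotated start are shown with GATA and ETS words in capitals, as written on the gene's strand:
Tfec, chr6:16898442-16898691, minus strand: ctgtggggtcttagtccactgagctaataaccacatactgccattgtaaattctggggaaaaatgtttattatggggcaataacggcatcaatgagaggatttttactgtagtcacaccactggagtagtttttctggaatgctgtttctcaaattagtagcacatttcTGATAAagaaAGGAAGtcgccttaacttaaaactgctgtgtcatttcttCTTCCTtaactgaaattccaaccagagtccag
Tal1, chr4:115056176-115056425, plus strand: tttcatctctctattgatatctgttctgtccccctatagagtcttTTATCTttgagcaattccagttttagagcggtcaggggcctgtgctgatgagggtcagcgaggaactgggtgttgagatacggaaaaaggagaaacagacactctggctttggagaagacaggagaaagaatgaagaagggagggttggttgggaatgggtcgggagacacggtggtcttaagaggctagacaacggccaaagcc
The Tfec promoter held 1 GATA word and 2 ETS words, and the Tal1 promoter held 1 GATA word and no ETS word. A GATA word was found in 16.6% and an ETS word in 39.2% of all 32851 promoters in the table, so such matches are common and say nothing of binding.

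Among healthy LSECs the members were ordered by a level divided by exon length, which makes genes comparable (CPM per kb of exon). Sox18 stood first with 221 ± 33.3 CPM per kb (SD, n = 4), followed by Maf with 83.8 ± 10.9 and Gata4 with 74.1 ± 9.4. The means of Maf and Gata4 differed by less than their summed SDs, while Sox18 was separated from both. Erg (48.7 ± 11.8) and Fli1 (37.1 ± 5.52) formed the next pair, whose difference again lay within the summed SDs. Lmo2 (19.8 ± 4.56), Meis2 (15.7 ± 1.68), Sox17 (15.1 ± 2.87) and Tfec (14.6 ± 2.67) could not be ordered beyond their spread. Tal1 was lowest at 3.89 ± 0.491 CPM per kb and was detected in every sample.

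**Figure D1:**
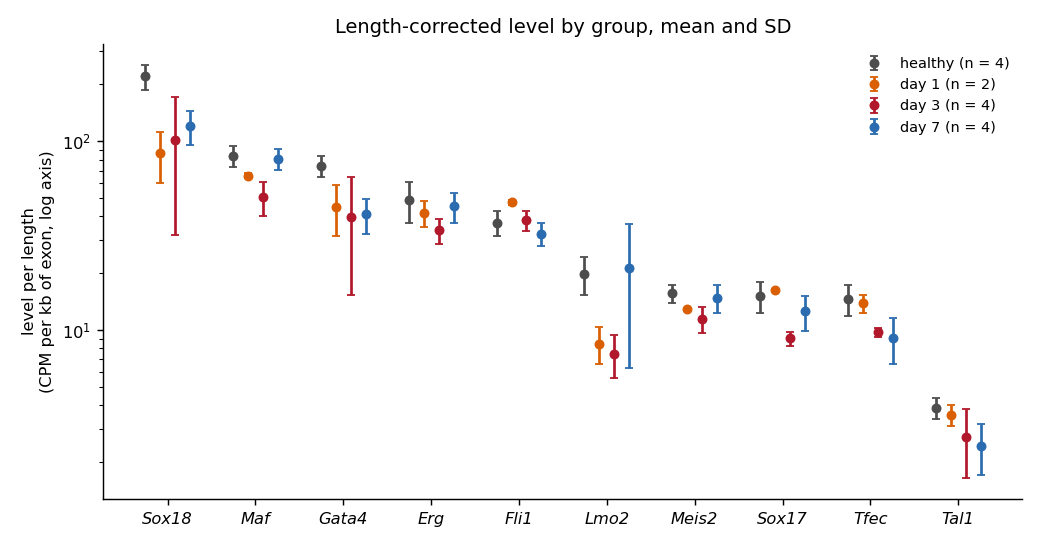
Length-corrected level of each factor (CPM per kb of exon, log axis) by group, as mean (points) and SD (bars), with healthy in grey, day 1 in orange, day 3 in red and day 7 in blue. Sox18 was the highest in healthy samples at 221 CPM per kb and Tal1 the lowest at 3.89 CPM per kb, and the widest bars are those of Sox18 and Gata4 at day 3 and of Lmo2 at day 7.

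Unless another tool or scale is named, a member is called or not called by edgeR with TMM scaling. At day 3, the only time with members so called against healthy, Maf, Sox17 and Lmo2 fell and no member rose with TMM scaling, and none of the 3 was called when scaled to total counts or to pan-endothelial genes. With total counts their log2 changes stayed close to those of TMM (Maf -0.68, Sox17 -0.70 and Lmo2 -1.35), whereas on the pan-endothelial scale they were -0.02, -0.05 and -0.74. Of all 26626 genes tested, 7.19% were called in this comparison (edgeR's quasi-likelihood test, Benjamini-Hochberg adjusted p under 0.05), against 3 of the 10 members. The median log2 fold change of the members was -0.66, beside 0.18 over all genes, and 9 of 10 members had a negative value. Comparisons with healthy share the 4 healthy samples and are therefore not independent of each other.

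Maf, a bZIP factor of LSEC specification, was at 813, 602, 692 and 655 CPM in healthy replicates 1 to 4 and at 428, 309, 517 and 412 CPM at day 3. Every day 3 sample lay below every healthy sample. The log2 fold change was -0.73 (SE 0.18, adjusted p = 0.0277, edgeR). The call of Maf was lost when a single library was left out, namely healthy replicate 1 (0.0886), healthy replicate 3 (0.0668) or day 3 replicate 2 (0.062), with the adjusted p of edgeR given in parentheses, with total counts as the scale (0.0614) and in the fit of only the groups compared (0.0617). At day 1 Maf measured 531 and 553 CPM, also below all healthy samples, but the change of -0.35 was not called (adjusted p = 0.470). At day 7 the values of 676, 590.4, 785 and 609.9 CPM overlapped with healthy and lay above all those of day 3, with a log2 difference from day 3 of 0.68 (SE 0.18, adjusted p = 0.0822) that missed the threshold and passed it without day 3 replicate 3 (0.0466) or 4 (0.0437). These fits called 0.718% and 6.25% of all genes between days 7 and 3, against 1.77% with all samples.

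Lmo2, the bridging partner in GATA and TAL1 complexes, had the largest fall among the called members. It was at 30.7, 50.6, 39.3 and 51.3 CPM in healthy samples, at 21.2 and 15.5 CPM at day 1 and at 13.6, 11.8, 20.3 and 19.1 CPM at day 3. All 6 samples of days 1 and 3 lay below the lowest healthy value, and the day 3 change of -1.40 (SE 0.38, adjusted p = 0.0405) was called while that of day 1, -1.23 (SE 0.48, adjusted p = 0.194), was not. The call of Lmo2 was lost when a single library was left out, namely healthy replicate 1 (0.0573), healthy replicate 2 (0.0987), healthy replicate 3 (0.0744), healthy replicate 4 (0.0732), day 3 replicate 1 (0.0817) or day 3 replicate 2 (0.106), with the adjusted p of edgeR given in parentheses, and with total counts as the scale (0.0577). Day 7 values were 31.6, 24.6, 94.8 and 33.8 CPM. Replicate 3 stood far above the other day 7 samples, which overlapped with healthy. The log2 difference between day 7 and day 3 was 1.51 (SE 0.38, adjusted p = 0.0690), and without that replicate it was 1.00 (adjusted p = 0.188), whereas without day 3 replicate 4 it was 1.65 (adjusted p = 0.0408). The last of these fits called 6.25% of all genes, against 1.77% with all samples.

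Sox17, which is known from arterial and sinusoidal endothelium, measured 75.3, 81.5, 52.1 and 80.1 CPM in healthy samples and 78.7 and 77.1 CPM at day 1. At day 3 it measured 39.9, 43.1, 41.5 and 48.4 CPM, a narrow range entirely below both earlier groups. The change from healthy was -0.74 on the log2 scale (SE 0.19, adjusted p = 0.0302). The call of Sox17 was lost when a single library was left out, namely healthy replicate 1 (0.0781), healthy replicate 2 (0.0904), healthy replicate 4 (0.0574), day 3 replicate 1 (0.0546) or day 3 replicate 2 (0.0673), with the adjusted p of edgeR given in parentheses, and with total counts as the scale (0.0777). The change from day 1, -0.85 (SE 0.22, adjusted p = 0.0636), was larger but not called by edgeR with all samples. It was called by edgeR without day 3 replicate 4 (0.0377) or day 7 replicate 2 (0.0451), or with 10 counts needed in every sample (0.0459). These fits called 3.46%, 2.44% and 5.12% of the genes they tested, against 2.54% in the main fit. DESeq2 (adjusted p = 0.0155) and limma (adjusted p = 0.0287) called the change of Sox17 from day 1 with all samples. At day 7 the values of 62.6, 43.4, 60.2 and 74.1 CPM spanned the distance between both groups, with a change from healthy of -0.27 (adjusted p = 0.436).

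**Figure D2:**
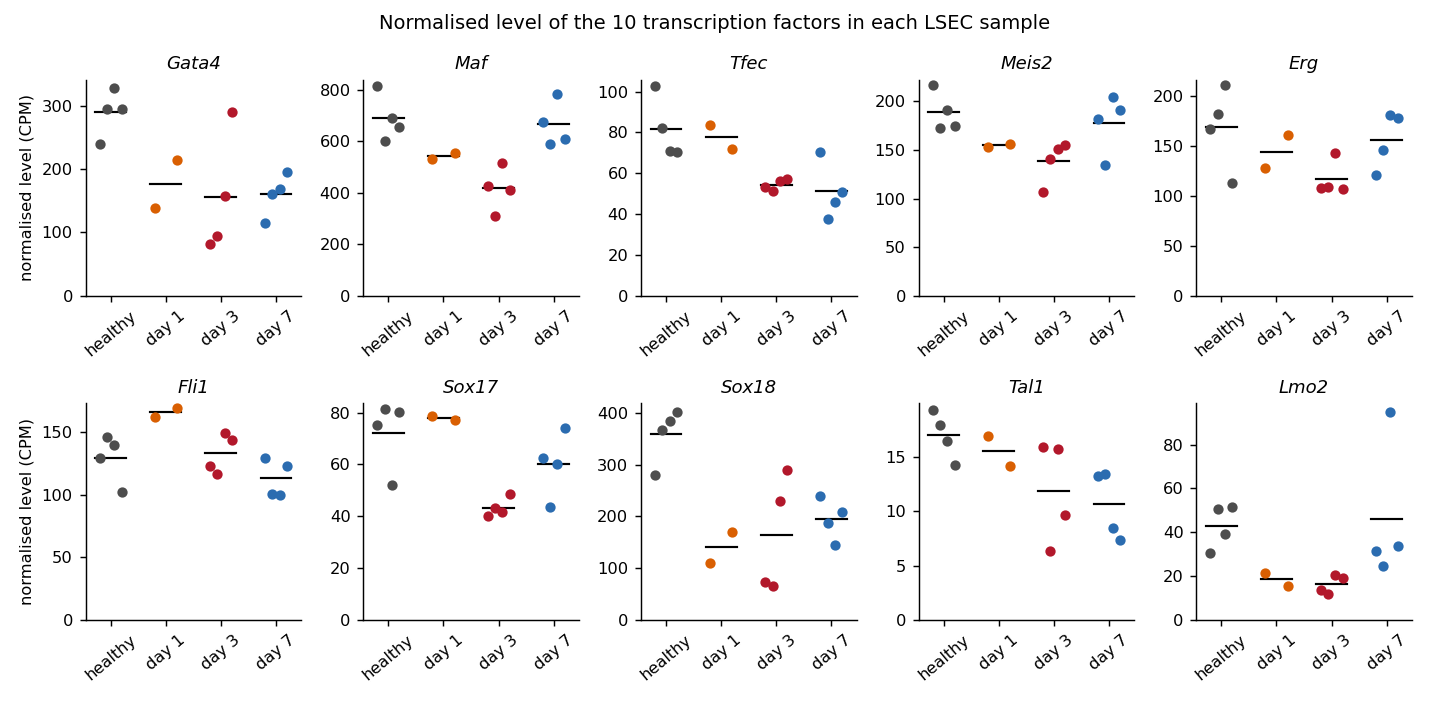
Normalised level (CPM, linear axis from 0, 1 panel per factor) in each of the 14 samples as points, with the group mean as a line. At day 3 all points of Maf, Tfec, Meis2, Sox17 and Lmo2 lie below the healthy points, while those of Gata4, Sox18, Erg, Tal1 and Fli1 overlap with them.

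Gata4 and Sox18 had larger mean differences than Maf or Sox17 at day 3 but were not called by edgeR, and their replicates at day 3 were spread widely. Gata4 measured 239.7, 294, 328 and 295 CPM in healthy samples, 139 and 214 CPM at day 1, 81.3, 93.7, 158 and 290.2 CPM at day 3, and 114, 160.3, 169 and 196 CPM at day 7. Only day 3 replicate 4 reached the healthy range, and all other samples after CCl4 lay below it. That library had the fewest genes with a count (22986) and a mitochondrial share of 3.06% of counts, within the healthy range of 3.04 to 3.65%, against 4.62 to 5.87% in the other day 3 samples and 5.28 to 9.87% at day 7, and the part of this in the Gata4 level was not tested. The log2 fold changes were -0.72 (SE 0.43, adjusted p = 0.437) at day 1, -0.89 (SE 0.34, adjusted p = 0.140) at day 3 and -0.86 (SE 0.34, adjusted p = 0.175) at day 7. Without day 3 replicate 4 Gata4 was called at day 3 (-1.46, adjusted p = 0.00787) and at day 7 (-0.86, adjusted p = 0.04996). That fit also called more of all genes, 12.5% at day 3 and 8.19% at day 7, against 7.19% and 3.18% with all samples. The day 7 change of Gata4 itself was -0.86 in both fits. Limma called Gata4 with all samples at days 1, 3 and 7 (adjusted p = 0.0219, 0.000444 and 0.00749), the fit with a replicate block at day 3 (adjusted p = 0.0412) and the fit of only the groups compared at day 7 (adjusted p = 0.0211).

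Sox18, a SOXF factor of lymphatic and blood vessel development, measured 280.1, 368, 383 and 401 CPM in healthy samples and 110.3 and 170.0 CPM at day 1. At day 3 replicates 1 and 2 were at 72.6 and 65.3 CPM and replicates 3 and 4 at 229 and 289 CPM. At day 7 it measured 238, 186, 145 and 208 CPM, again below all healthy samples, so that of the 10 samples after CCl4 only day 3 replicate 4 overlapped with healthy. The log2 fold changes of -1.35 (SE 0.53, adjusted p = 0.189), -1.13 (SE 0.41, adjusted p = 0.120) and -0.88 (SE 0.41, adjusted p = 0.235) at days 1, 3 and 7 missed the threshold in edgeR, while limma called all of them (adjusted p = 0.00234, 0.000282 and 0.00794) and the fit of only the groups compared called days 1 and 7 (adjusted p = 0.0232 and 0.0273). Its 95% interval at day 3, -2.01 to -0.24, covered differences from small to large. Without day 3 replicate 4 the change was -1.61 (adjusted p = 0.0287), in the fit that called 12.5% of all genes.

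The split within day 3 went along with the marker levels of some other cells and not of all. Replicates 1 and 2, which held the lowest Gata4 and Sox18, had monocyte and neutrophil marker sums of 13264 and 8072 CPM, and replicates 3 and 4 had 1502 and 1387 CPM, within or just above the healthy range. Sums of 4 further lists were also higher in replicates 1 and 2 than in replicates 3 and 4. In replicates 1 to 4, Kupffer cell sums were 946, 927, 436 and 488 CPM, and lymphocyte sums 280, 193, 122 and 28.1 CPM. Erythroid and platelet sums were 816, 810, 205 and 142 CPM, and cholangiocyte sums 1008, 1178, 321 and 359 CPM. Stellate sums of 1503, 1327, 735 and 2466 CPM in replicates 1 to 4 and hepatocyte sums of 1345, 3043, 4233 and 2846 CPM did not divide the samples in that way. The cholangiocyte sums came mostly from Spp1, with 82424, 68408, 28628 and 33024 counts in replicates 1 to 4. Krt7 had 225, 133, 173 and 99 counts there and Epcam 395, 339, 261 and 0. Krt19 had 180, 257, 110 and 0 counts and Cftr 14, 7, 6 and 0. Sox9 ran the other way, with 83, 114, 240 and 736 counts. Pan-endothelial sums were 6937 and 7703 CPM in replicates 1 and 2 and 9082 and 11236 CPM in replicates 3 and 4. With replicates 1 and 2 left out, the day 3 change of Gata4 was -0.40, that of Sox18 -0.50, that of Maf -0.60, that of Sox17 -0.71 and that of Lmo2 -1.16, and 0 members were called with the 2 remaining samples. The part of the other cells in the member levels was not tested.

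**Figure D3:**
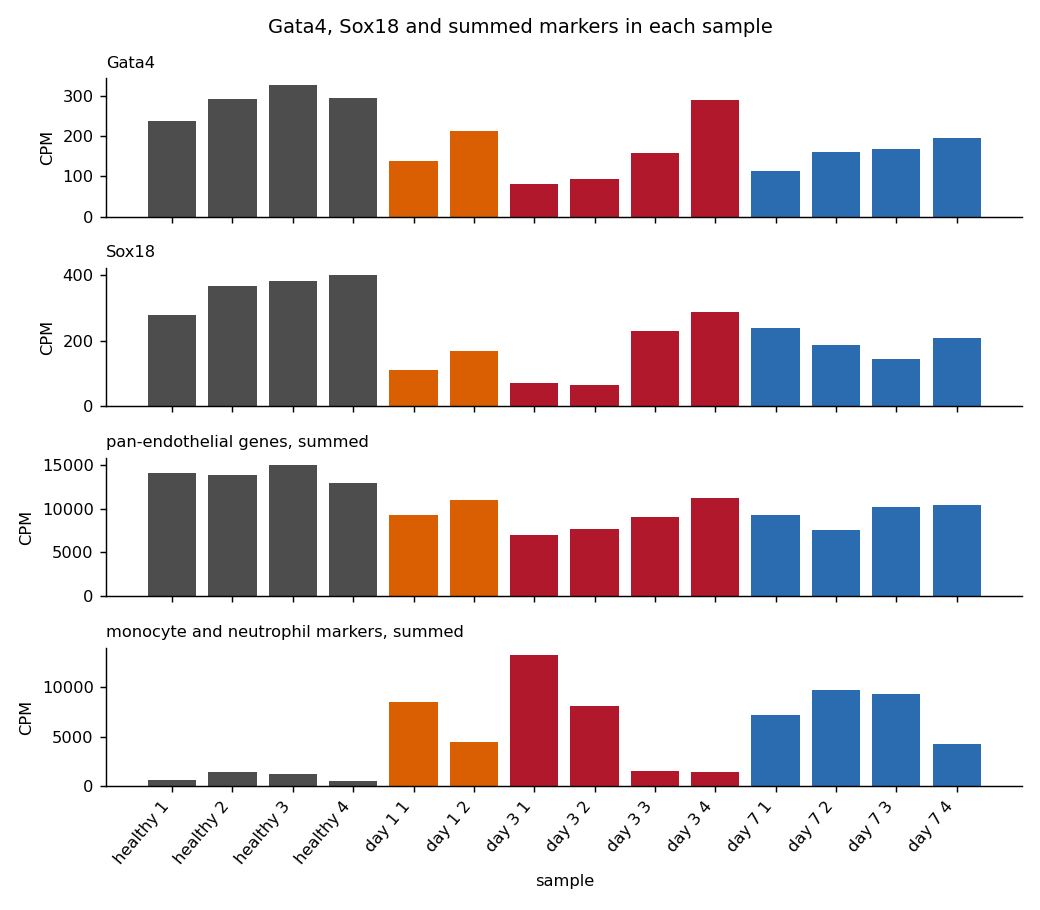
Levels (CPM, linear axes from 0) of Gata4 and Sox18 and of the summed pan-endothelial and monocyte and neutrophil markers, 1 bar per sample, coloured by group (healthy grey, day 1 orange, day 3 red, day 7 blue). In day 3 replicates 1 and 2 Gata4 was at 81.3 and 93.7 CPM with marker sums of 13264 and 8072 CPM, and in replicates 3 and 4 at 158 and 290.2 CPM with 1502 and 1387 CPM.

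Tfec and Meis2, the other factors enriched in LSECs, showed smaller and tighter differences. Tfec, a bHLH-ZIP factor of the MITF family, was at 103, 82.1, 71.0 and 70.6 CPM in healthy samples, 83.8 and 71.8 CPM at day 1, 53.3, 51.1, 56.1 and 57.3 CPM at day 3 and 70.4, 37.4, 45.9 and 50.9 CPM at day 7. All samples of days 3 and 7 lay below the healthy range, by a narrow margin in day 7 replicate 1. The changes of -0.58 (SE 0.19, adjusted p = 0.0907) and -0.67 (SE 0.19, adjusted p = 0.0759) missed the threshold, and both were called without day 7 replicate 1 (-0.70, adjusted p = 0.0224, and -0.87, adjusted p = 0.0167). That fit called 8.07% and 5.7% of all genes at days 3 and 7, against 7.19% and 3.18% with all samples. Meis2, a TALE homeobox factor, measured 173 to 217 CPM in healthy samples, 153 and 157 CPM at day 1, 107 to 155 CPM at day 3 and 135 to 205 CPM at day 7. Its day 3 change of -0.45 (SE 0.17, adjusted p = 0.136) was called without day 3 replicate 4 (-0.59, adjusted p = 0.0470), where 12.5% of all genes were called. Its samples at days 1 and 3 were all below the healthy ones and those at day 7 overlapped with them.

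With all samples and TMM scaling, edgeR called the ETS factors Erg and Fli1 at no time. Erg, which maintains junctions and quiescence, ranged from 114 to 211 CPM in healthy samples, was at 128 and 161 CPM at day 1, at 109, 109, 144 and 107 CPM at day 3 and at 121, 147, 181 and 179 CPM at day 7. The day 3 change was -0.53 (SE 0.21, adjusted p = 0.148 with edgeR and 0.0188 with limma). Without day 3 replicate 3 it was -0.79 (adjusted p = 0.0454), where 6.87% of all genes were called. Fli1, its close relative, was at 129, 146, 139.6 and 102 CPM in healthy samples and at 162 and 169 CPM at day 1, above all of them, whereas days 3 (117 to 149 CPM) and 7 (99.9 to 129 CPM) overlapped with healthy. Its changes of 0.36 (adjusted p = 0.370), 0.04 (adjusted p = 0.917) and -0.19 (adjusted p = 0.514) were not called, and the 95% interval at day 3 ran from -0.30 to 0.38. Fli1 was the only member with a log2 change above 0 at day 3.

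Tal1 was measured at 14.3 to 19.3 CPM in healthy samples, 16.996 and 14.2 CPM at day 1, 15.9, 6.34, 15.8 and 9.67 CPM at day 3 and 13.3, 13.5, 8.51 and 7.38 CPM at day 7. The day 7 samples lay below every healthy sample, and the changes of -0.51 (SE 0.30, adjusted p = 0.345) at day 3 and -0.67 (SE 0.30, adjusted p = 0.217) at day 7 were not called by edgeR, while limma called day 7 (adjusted p = 0.0201).

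**Figure D4:**
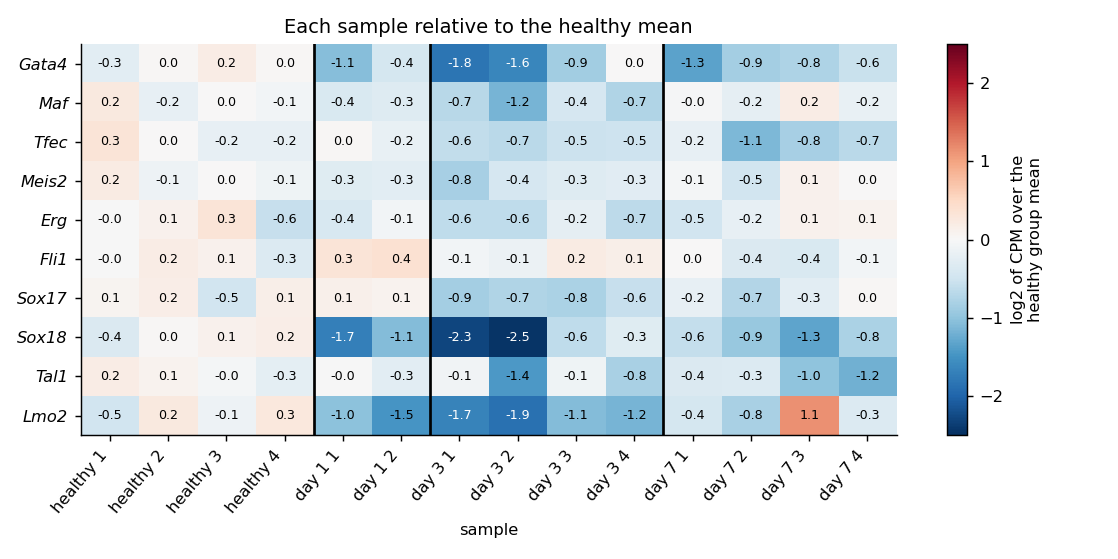
Colour map of log2 of the level (CPM) of each factor over its healthy group mean, for each sample, with blue below and red above the healthy mean. The darkest cells are Sox18 in day 3 replicates 1 and 2, and the strongest red cell is Lmo2 in day 7 replicate 3, at 94.8 CPM.

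At days 1 and 7 no member was called by edgeR, against 4.06% and 3.18% of all genes tested. An unadjusted p of edgeR under 0.05 was found for 2 members at day 1 and 4 at day 7, beside 8 at day 3. Of all 26626 genes tested, 4759 at day 1, 5609 at day 7 and 5906 at day 3 had such a p. DESeq2 called 0 members at day 1, 4 at day 3 (Maf, Tfec, Sox17 and Lmo2) and 1 at day 7 (Tfec), against 11.5%, 13.6% and 10.6% of all genes with an adjusted p, and limma with quality weights called 3, 8 and 4, against 16.2%, 27.3% and 26.5% of all genes called by limma. The members called by limma were Gata4, Sox18 and Lmo2 at day 1, all but Fli1 and Tal1 at day 3, and Gata4, Tfec, Sox18 and Tal1 at day 7. Complete separation below healthy was found for 5 members at day 1 (Gata4, Maf, Meis2, Sox18 and Lmo2), where 17.9% of all genes were so placed with only 2 samples, for 5 members at day 3 (Maf, Tfec, Meis2, Sox17 and Lmo2), where 6.84% of all genes were, and for 4 members at day 7 (Gata4, Tfec, Sox18 and Tal1), where 12.1% were. The median log2 change of the members was -0.25 at day 1 and -0.23 at day 7, beside -0.03 and 0.02 over all genes. Between the days after injection no member was called either, with 2.54% of all genes called between days 3 and 1 and 1.77% between days 7 and 3. There, 2 and 3 members had an unadjusted p of edgeR under 0.05, beside 4198 and 5017 of all 26626 genes. DESeq2 called 1 (Sox17) and 2 (Maf and Lmo2), against 9.42% and 6.02% of all genes, and limma called 2 and 4, against 12.6% and 22.5%.

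The size of these differences depended on what the members were scaled to. When each sample was scaled to its 18 pan-endothelial genes instead of to all genes, the median change of all genes at day 3 moved from 0.18 to 0.92, and the members moved with it. On that scale 5.29% of all genes were called at day 1, 25.4% at day 3 and 15.8% at day 7, and 0.387% of all genes at day 3 and 0.0638% at day 7 were called lower. On that scale Maf was at -0.02, Sox17 at -0.05, Lmo2 at -0.74 (adjusted p = 0.130) and Sox18 at -0.57, none of them called, and Fli1 was called higher at 0.74 (SE 0.17, adjusted p = 0.00977). Relative to pan-endothelial genes, then, the day 3 levels of Maf and Sox17 were not distinguishable from healthy, with 95% intervals of -0.48 to 0.43 and -0.48 to 0.39. Of these 18 reference genes, 6 were themselves called lower at day 3 with TMM. Their scale ran from 0.435 to 0.942 of the healthy mean across the day 3 samples. It cannot show a fall that members shared with the reference genes, and whether those genes changed within the cells was not tested. Relative to the median of all genes, all 10 members were lower at day 3 under both scalings. A change of scale moves the members and that median nearly alike, so the second scaling is no separate check of this. At day 7 Meis2 was the only member called on the pan-endothelial scale, higher by 0.55 (SE 0.16, adjusted p = 0.0340).

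**Figure D5:**
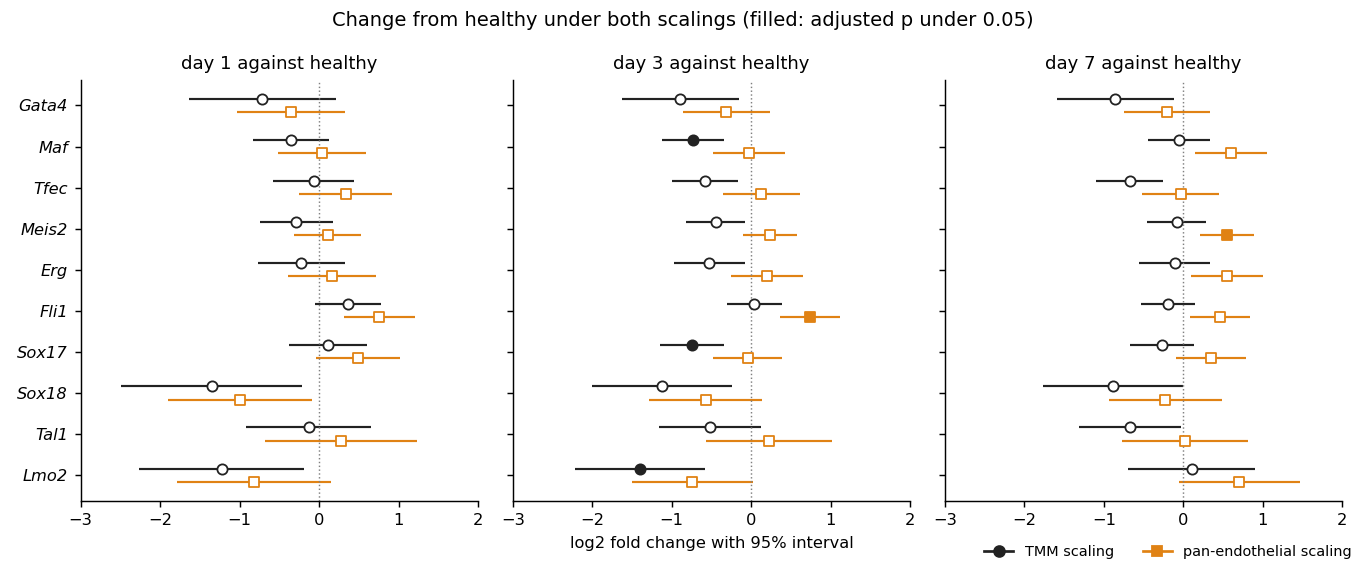
Log2 fold change of each factor from healthy at days 1, 3 and 7 with its 95% interval, scaled to all genes by TMM (black circles) or to 18 pan-endothelial genes (orange squares), filled where the adjusted p was under 0.05. At day 3 the filled points are Maf (-0.73), Sox17 (-0.74) and Lmo2 (-1.40) under TMM and Fli1 (0.74) under pan-endothelial scaling.

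Of 36 relatives of the members, from the same GATA, MAF, MITF, TALE, ETS, SOXF, TAL and LMO families, 35 were tested. At day 1, 1 was called higher and 1 lower, at day 3, 2 higher and 2 lower, and at day 7, 2 higher and none lower. Beside them, 4.06%, 7.19% and 3.18% of all genes were called at these times. Elk3, an ETS repressor and the most abundant relative per length at 129.6 ± 10.9 CPM per kb in healthy samples, fell from 522 to 636 CPM to 175 and 239 CPM at day 1 (-1.51, SE 0.27, adjusted p = 0.00695) and to 256 to 388 CPM at day 3 (-0.88, SE 0.21, adjusted p = 0.0223). Tfeb, a lysosomal regulator, fell by 0.91 at day 3 (SE 0.19, adjusted p = 0.0121), while its relative Mitf rose by 1.66 at day 3 (SE 0.31, adjusted p = 0.00751) and 2.06 at day 7 (SE 0.31, adjusted p = 0.00600). Gata6, scarce in healthy samples at 1.40 to 3.23 CPM, rose by 2.24 at day 3 (SE 0.53, adjusted p = 0.0236) and 2.63 at day 7 (SE 0.54, adjusted p = 0.0222), and its highest values of 24.9, 19.3 and 14.5 CPM came from the samples with the highest stellate marker sums of 7046, 2466 and 2539.5 CPM. The part of stellate cells in that rise was not tested. Scaled to pan-endothelial genes, 7 of 35 relatives were called higher and none lower at day 3, a share below the 25.4% of all genes called on that scale, and Elk3 (-0.21, adjusted p = 0.343) and Tfeb (-0.21, adjusted p = 0.536) were not called.

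The 11 partner proteins of Gata4, Tal1 and Lmo2 were all tested, and none was called higher. Cbfa2t3, a corepressor bound to TAL1 complexes, fell by 1.97 at day 1 (SE 0.45, adjusted p = 0.0239) and 1.75 at day 3 (SE 0.34, adjusted p = 0.00915). Ldb2, the LIM-domain-binding scaffold that holds Lmo2 and the most abundant partner per length at 59.9 ± 6.78 CPM per kb, went from 221, 206, 204 and 168 CPM in healthy samples to 111, 111, 138 and 74.1 CPM at day 3 and fell by 0.88 (SE 0.23, adjusted p = 0.0319). At day 1, 1 of 11 partners was called lower, at day 3, 2 of 11, and at day 7 none, where 4.06%, 7.19% and 3.18% of all genes were called in either direction. Relative to pan-endothelial genes 2 of 11 partners were called higher and none lower at day 3, and 5 higher at day 7, on a scale that moved the median of all genes to 0.92 and 0.67 and called 25.4% and 15.8% of them, so nothing particular to the partners is read from this count. There Cbfa2t3 was at -0.96 (adjusted p = 0.0547) and Ldb2 at -0.13 (adjusted p = 0.699) at day 3.

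Among 25 other endothelial transcription factors, 3 fell at day 1, 5 fell and 1 rose at day 3, and 2 rose at day 7. The shares of all genes called at these times were 4.06%, 7.19% and 3.18%. Hes1 and Hey1, targets of Notch, fell at day 1 (-1.25 and -2.03) and at day 3 (-1.68 and -1.47), and the flow-responsive Klf2 and Klf4 fell at day 3 (-1.97, SE 0.43, adjusted p = 0.0164, and -1.45, SE 0.31, adjusted p = 0.0157). Irf1, an interferon-response factor, fell by 2.12 at day 1. Foxf1, which is also expressed by stellate cells, rose by 2.83 at day 3 and 2.99 at day 7, and Zeb2 rose by 0.82 at day 7 (adjusted p = 0.0192). On the pan-endothelial scale, 2 rose and 2 fell at day 1, 3 rose and 2 fell at day 3 and 6 rose at day 7. That scale called 5.29% of all genes at day 1, 25.4% at day 3, with 0.387% lower, and 15.8% at day 7. Klf4 (-0.70, adjusted p = 0.128) and Hey1 (-0.74, adjusted p = 0.0931) were no longer called on it at day 3.

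Genes of the LSEC and capillary programmes were counted as well. The LSEC list holds genes of the paper's healthy signature, which was narrowed by levels in these same samples and also holds the member Maf. The capillary list holds Fabp4, Fabp5, Vwf and Vwa1, whose rise after CCl4 the paper reported. Counts from both lists are therefore partly set by that choice and are no independent support. Of 20 LSEC genes, 8 fell and 1 rose at day 3, among them Mrc1, the mannose receptor (-1.38, adjusted p = 0.00282), and Aass (-1.34, adjusted p = 0.00298), while Lyve1, the hyaluronan receptor, rose by 1.25 (adjusted p = 0.00644). At day 1, 4 fell and 2 rose, and at day 7, 2 fell. Over all genes, 4.06%, 7.19% and 3.18% were called with TMM at days 1, 3 and 7. On the pan-endothelial scale 5 of 20 LSEC genes rose and 2 fell at day 3. There 25.4% of all genes were called in either direction, and 0.387% were called lower. Of 16 continuous capillary genes, 6 rose and none fell at day 3, led by Apln, the ligand of the apelin receptor (3.19, adjusted p = 0.00311). At day 1, 5 of them rose, and at day 7, 1 rose. On the pan-endothelial scale 10, 7 and 5 rose on days 3, 1 and 7, against 25.4%, 5.29% and 15.8% of all genes called. Of the 18 pan-endothelial genes, 3 fell and 2 rose at day 1, 6 fell at day 3 and 4 fell at day 7, including Tek, the angiopoietin receptor (-1.24, adjusted p = 0.00425, at day 3).

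Over the 14 samples, log2 levels of Gata4 and Sox18 ran most closely together among the 45 pairs of members (Pearson's r = 0.87), followed by Maf with Lmo2 (0.79) and Maf with Meis2 (0.75), and Fli1 with Lmo2 ran most opposed (-0.40). These values include the differences between groups and the shared libraries. Among 9268 other protein-coding genes with a mean of at least 10 CPM, the most like Gata4 were Klc1 (0.98), Tmc8 (0.98) and Txndc12 (0.97), and the most like Sox18 were Tor4a (0.97), Vangl1 (0.96) and Zbtb14 (0.96). Closest to Maf was Fam117b (0.94), to Tfec Nrbp1 (0.93), to Meis2 Aff1 (0.93), to Fli1 Ubtd1 (0.91), to Lmo2 Vamp1 (0.91), to Sox17 Las1l (0.90), to Tal1 Tsnax (0.83) and to Erg Rhoq (0.82).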

How the data were processed

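Reads were quality-trimmed by the authors (FastQC, AfterQC) and aligned to GRCm38 using STAR. StringTie followed, and the deposited values are raw counts per Ensembl gene, without normalization, 1 column for each of the 14 samples. The annotation release, the use of strand and the step from StringTie to whole counts are not given in the sources used here. The labels number the samples of a group, and the sources used here do not state whether each came from a separate mouse. P-values measure the spread between these samples, which may be technical.

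Gene names, positions and exon lengths came from GENCODE vM21, which held 54495 of the 54524 IDs, and promoters from RefSeq (GRCm38.p6). Genes of low count were removed by filterByExpr at its defaults (10 counts, 15 in total). The rest were scaled by TMM and fitted for all 4 groups together with the quasi-likelihood test of edgeR 4.0.16 in R 4.3.3. P-values were adjusted over all 26626 genes by Benjamini-Hochberg with a threshold of 0.05. SEs come from the fold change and its F statistic, and intervals are 95%. The study's methods name DESeq2, which was run as an alternative (1.42.0), as was limma 3.58.1 with quality weights. Log2 CPM for correlations used a prior count of 2. The scripts were tested on simulated data. The 46401496 to 103912264 counts per sample make counting error small beside the spread between samples.

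The members and all gene lists were chosen with earlier results of these data known. All 10 members are named. From each other list, genes called against healthy were named, at most 4 per list and comparison by adjusted p, plus the most abundant relative and partner per length, and the genes most like a member were taken by Pearson's r. A relative that this rule would name at day 1 is not reported here. Foxf1 at day 3, past the limit of 4, is named after its value was seen. Stab2, Fcgr2b, the antisense genes and Retnlg are named as checks. The alternatives were other scalings (DESeq2 size factors, total counts, pan-endothelial genes), other filters, other tools, fits of only the groups compared, the replicate block, and leaving out each sample in turn. Leaving out day 3 replicates 1 and 2 together was added after seeing the data.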

Additional observations from a re-analysis of the deposited data

Results flagged for a closer look

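In the groups of 4 samples, 30 combinations of member and group were screened for a sample standing apart by Dixon's criterion, and 2 passed its 95% critical value. Chance passes about 1 in 20 groups. Erg in day 3 replicate 3 was at 143.6 CPM, against 107 to 109 CPM in the other day 3 samples, a gap of 0.942 of the group's range. Lmo2 in day 7 replicate 3 was at 94.8 CPM, against 24.6 to 33.8 CPM in the other day 7 samples, a gap of 0.868 of the range. That library had the lowest total, 46401496 counts, and the highest share of mitochondrial counts, 9.87%. The part of depth or RNA quality in these values was not tested.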

How the results depend on the processing

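The number of members called was 0 at day 1, 3 at day 3 and 0 at day 7 against healthy, and 0 for day 3 against day 1 and for day 7 against day 3. In that order of the 5 comparisons, the calls numbered 3, 8, 4, 2 and 4 with limma, 0, 4, 1, 1 and 2 with DESeq2, 2, 2, 2, 0 and 0 in fits of only the groups compared, 0, 4, 0, 1 and 2 when each sample needed 10 counts, 0, 3, 0, 0 and 0 with no filter or with DESeq2 size factors, and 0 throughout with total counts. Scaled to pan-endothelial genes they numbered 0, 1, 1, 0 and 0, both called members being higher. Without day 3 replicates 1 and 2 they numbered 1, 0, 2, 0 and 0. Leaving out 1 sample at a time gave 0 at day 1, 0 to 6 at day 3, 0 to 1 at day 7, 0 to 1 for day 3 against day 1 and 0 to 2 for day 7 against day 3. The cause of these shifts was not tested. Over all genes, DESeq2 called 2725, 3581, 2602, 2314 and 1632 genes and limma 4308, 7265, 7047, 3344 and 6002, against 1080, 1915, 846, 676 and 472 with edgeR. The pan-endothelial scale gave 1408, 6751, 4218, 647 and 146, fits of only the groups compared 2327, 1108, 3156, 189 and 1, no filter 832, 1549, 596, 527 and 157, total counts 955, 1608, 713, 554 and 287, and the fit without day 3 replicates 1 and 2 gave 1952, 2417, 2306, 1923 and 638. DESeq2 size factors gave 1076, 1897, 794, 674 and 389. With 10 counts needed in each sample, 16311 genes were tested and 8.11%, 14.6%, 6.95%, 5.12% and 3.77% were called. With no filter, 44622 genes were tested and 1.86%, 3.47%, 1.34%, 1.18% and 0.352% were called. Fits of only the groups compared called 10.2%, 5.14%, 14.6%, 0.762% and 0.00451% of the genes they tested. Leaving out 1 sample at a time gave 164 to 1845 for day 1 against healthy, 946 to 3314 for day 3 against healthy, 193 to 2166 for day 7 against healthy, 49 to 932 for day 3 against day 1, 26 to 1652 for day 7 against day 3.

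Signs turned mostly under pan-endothelial scaling, where the log2 changes became, for day 1 against healthy Maf 0.039, Tfec 0.33, Meis2 0.11, Erg 0.17, Tal1 0.28, and for day 3 against healthy Tfec 0.13, Meis2 0.24, Erg 0.20, Tal1 0.22, and for day 7 against healthy Maf 0.60, Meis2 0.55, Erg 0.55, Fli1 0.46, Sox17 0.35, Tal1 0.026, and for day 3 against day 1 Gata4 0.041, Meis2 0.13, Erg 0.029, Lmo2 0.077. Under limma they became, for day 3 against healthy Fli1 -0.15, and for day 7 against healthy Lmo2 -0.069, and for day 3 against day 1 Sox18 -0.78. In fits of only the groups compared Fli1 became -0.037 for day 3 against healthy. With no filter they became, for day 3 against healthy Fli1 -0.14, and for day 7 against healthy Lmo2 -0.033. With 10 counts in each sample they became, for day 7 against healthy Maf 0.041, Meis2 0.0084, and for day 7 against day 3 Tfec 0.025. With total counts they became, for day 7 against healthy Maf 0.022, and for day 7 against day 3 Gata4 -0.0055. Without day 3 replicates 1 and 2 they became, for day 3 against day 1 Gata4 0.35, Lmo2 0.10, and for day 7 against day 3 Gata4 -0.45, Sox18 -0.37. Every one of these changes was short of the threshold with TMM.

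Leaving out 1 sample at a time turned the sign of 13 changes close to 0, with these ranges. For day 1 against healthy, Tfec ran from -0.21 to 0.061, Sox17 ran from -0.021 to 0.17. For day 3 against healthy, Fli1 ran from -0.16 to 0.12. For day 7 against healthy, Maf ran from -0.11 to 0.035, Meis2 ran from -0.13 to 0.028, Erg ran from -0.24 to 0.020, Lmo2 ran from -0.49 to 0.31. For day 3 against day 1, Gata4 ran from -0.72 to 0.12, Sox18 ran from -0.23 to 0.54, Lmo2 ran from -0.45 to 0.0090. For day 7 against day 3, Gata4 ran from -0.12 to 0.59, Tfec ran from -0.17 to 0.090, Tal1 ran from -0.34 to 0.17.

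Replicate numbers are shared between groups, but the deviations of same-numbered samples from their group means correlated at -0.232 to 0.0962 over 18 pairs, so the numbers were not taken to pair the samples. With the replicate block, 4 members were called at day 3 (Gata4, Maf, Sox17 and Lmo2) and 0 in the other comparisons, and over all genes 594, 1385, 435, 311 and 244 were called. The changes that turned sign under it became, for day 7 against healthy Lmo2 -0.092, and for day 3 against day 1 Sox18 -0.23.

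The size of the day 3 change of Maf and Sox17 depends on whether all genes or endothelial genes are the reference. With total counts it was -0.68 and -0.70, and on the pan-endothelial scale -0.02 and -0.05. Neither gene was called on these 2 scales, and each call at day 3 is lost when 1 of several libraries is left out. The lowest member count was 373, of Tal1 in day 3 replicate 2.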
